A study of Mus musculus with 10 samples.

Results

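The data describe dividing progenitor cells of the mouse small intestinal crypt that carried no detected Lgr5 transcript. The members are 120 wells with 1 sorted cell each, taken from 2688 wells of sorted cells and 3840 wells in the whole series. A well qualified with at least 2000 molecules from genes other than spike-ins, no molecule of Lgr5 or Atoh1, and under 2% of molecules in the goblet cell genes Muc2, Fcgbp, Zg16, Clca3, Tff3 and Agr2. Of 1434 sorted wells with enough molecules, 576 met these limits. They were ranked by the share of their molecules in 10 genes of G2 phase and mitosis (Ube2c, Ccna2, Cdk1, Birc5, Nusap1, Ccnb1, Cdca3, Plk1, Cdc20 and Aurka), here called the mitotic score. The top 120 were kept, and the other 456 wells form the background. Because measured values chose the wells, the score genes, the limit genes and the differences from the background are given as a description. Counts of limma calls in those contrasts describe their size and support nothing.

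The labels give every library as C57Bl/6, a common inbred mouse strain, and its tissue as crypts of the small intestine. No genotype other than the strain, no age and no treatment is stated. The sorted cells fill 7 libraries, each a plate of 384 wells, read with CEL-seq2, in which cDNA is made from the poly(A) end and a random barcode marks each molecule before amplification. The titles give the code GK5a to 5 libraries, numbered 1 to 5 and all marked M2, and the code GK5b to 2, which end in G and L and are here numbered 1 and 2. They explain neither the codes, the M2 and the endings, nor the sort gate, nor which libraries came from separate animals. P-values over libraries therefore measure the spread between these libraries only, which may be technical. The 3 libraries of hand-picked doublets and triplets entered no comparison.

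Crypt base stem cells express Lgr5, a receptor that amplifies Wnt signalling, and divide steadily. Their daughters leave the base and divide several more times as transit-amplifying progenitors before they become absorptive enterocytes or secretory cells. Each division passes through S phase, when DNA and the machinery to copy it are needed, and then through G2 and mitosis, when cyclin B with Cdk1, the Aurora and Polo kinases, the spindle and the kinetochores act. Genes of the first wave are known targets of E2F factors. Genes of the second are known for promoters with a CHR element and CCAAT boxes, bound by the DREAM and MuvB complexes and by NF-Y.

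The members were found in every sorted library, with 15, 17, 17, 17 and 22 wells in GK5a 1 to 5 and 15 and 17 wells in GK5b 1 and 2. They made up 18.2% ± 2.41 (SD, n = 5) of the wells that met the limits in GK5a, and 65.2% and 24.6% in the GK5b libraries. The gap of 26.7 percentage points is a description: with 2 against 5 libraries an exact permutation test cannot give a two-sided p below 0.0952, so it was not read as a test. The gap was 6.41 points without GK5b 1, in which 23 wells met the limits. The median member held 14111 molecules (range 2260 to 75099), against 7831 in the background. Relative to spike-in RNA the median member had 47.0 molecules per spike-in molecule and the median background well 25.0. The members of GK5b 1 and 2 had medians of 192 and 115 molecules per spike-in molecule, against 27.1 to 43.7 in the GK5a libraries. Background wells had 136 and 75.8 in GK5b and 17.1 to 26.5 in GK5a, so this gap was not particular to the members. With each well thinned to 2000 barcode counts, members showed 1249 ± 16.8 genes and background wells 1214 ± 21.0 (means of library medians, SD, n = 7). Members were higher in 7 of 7 libraries, by 35.1 genes (SD 10.6), of which the 10 score genes can be a part.

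Nearly all members carried epithelial markers. Epcam, an adhesion protein of epithelium, was found in 118 of 120 wells, the keratin Krt8 in 117 and the microvillus protein Vil1 in 104. The background was close, with 94.7%, 95.4% and 81.6% of wells, so these markers were not particular to the members. Of the markers of other lineages, the tuft cell gene Dclk1 was in 1 well and the enteroendocrine genes Chga and Chgb in 7 each. Col1a2 of stromal cells was in 0 wells of the members, the background and the Lgr5-positive wells, so it says nothing particular to the members. Over the whole marker lists, tuft, immune and stromal genes were each at 0 in 114 of 120 members. Most background wells had none either (397, 412 and 427 of 456). Among members the enteroendocrine list was at 0 in 77 wells, the goblet list outside the limits in 24 and the Paneth list in 15. In the background these lists were at 0 in 244, 68 and 74 of 456 wells. The highest shares of these lists in a member were 0.429%, 0.584% and 0.275% of its molecules. The secretory precursor list reached 0.707% in a member, and its gene Neurog3 was in 4 members, so single wells on a secretory path can be among them. Muc2, a limit gene, was in 71 members. Lyz1, the Paneth cell lysozyme, was seen in 48.3% of members and 44.3% of background wells. The 2 members without Epcam stood apart. The one in GK5a 2 held 1.42% of its 24314 molecules in immune genes, among them Cd52 and Cd79a, and the one in GK5a 3 held 0.719% of 4595 molecules there, among them Ptprc and Cd3g. Results that these wells move are given with and without them. No doublet caller was run, and no pair of wells held identical counts.

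The score genes were spread widely among the members. The score ran from 0.212% to 0.756% of molecules, with a median of 0.406%, while the background median was 0.0163% and 148 of its 456 wells had none. The edge was gradual: the wells ranked 118 to 120 scored 0.215%, 0.214% and 0.212%, and the next scored 0.211%, 0.205% and 0.205%. All 10 genes were detected in 65 of 120 members and at least 8 in 102. Ube2c, which supplies ubiquitin to the anaphase-promoting complex, was in 118 members. It ranged from 816 to 1411 molecules per 1e6 molecules of the library's wells (CPM) over the 7 member libraries, with a mean of 1078 ± 222, against 80.5 ± 26.8 in the background. Plk1, the Polo kinase of mitotic entry, stood at 271 ± 66.5 CPM against 21.8 ± 11.9, and Aurka, the centrosomal Aurora kinase, at 161 ± 25.2 against 13.1 ± 10.2. For each of the 10 genes the member libraries lay above all background libraries, as the ranking makes likely. Across single members, which were chosen by the sum of these genes, correlations between them were low. Over 45 gene pairs the median Pearson correlation of log-transformed shares was 0.14 (120 wells, description only). It ran from -0.12 for Plk1 with Birc5 to 0.36 for Cdk1 with Ube2c. Sampling noise, the shared total of each well and the choice of wells by this sum enter these values. They therefore cannot show how closely the genes go together in dividing cells.

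**Figure D1:**
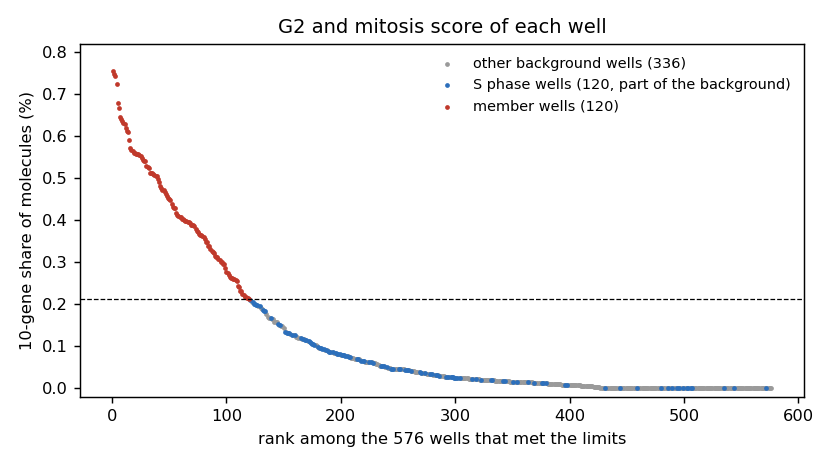
Mitotic score (percent of molecules in the 10 score genes, y axis) of the wells that met the limits, ordered by rank (x axis) and coloured as members, S phase wells and other background wells, with a dashed line at the lowest member. The score falls gradually through the edge, from 0.212% at rank 120 to 0.211% in the next well, with no step.

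To place the members within the cycle they were set beside the 120 background wells with the highest share of Mcm2 to Mcm7, Pcna, Rrm2, Tyms and Ung, genes of DNA replication. These S phase wells also had zero Lgr5. They were chosen from the background, so this contrast lies within the ranking and its calls are read as a description. In the 6 libraries with at least 5 such wells, limma called 173 of 5168 genes higher in members (3.35% of those tested) and 94 lower (1.82%). The latter count was 51 without GK5a 3 and 51 without GK5b 2. The groups did not differ in cycle genes alone. Of the crypt base stem cell list 5 of 15 tested genes were lower in members and 0 higher (median log2 difference -0.39). Of the enterocyte list 2 of 18 were higher and 0 lower (median 0.11).

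Genes of the spindle, the kinetochore and the mitotic kinases stood higher in members nearly without exception. None of those counted here is in the score, but choosing wells by the score makes their rise likely, so it is no separate support. Calls were 25 of 26 tested spindle and cytokinesis genes, 16 of 19 kinetochore genes and 16 of 18 mitotic kinases and cyclins, with 0 lower. Their median log2 differences were 2.08, 1.51 and 1.68, beside 0.03 over all genes tested. Hmmr, a spindle-associated receptor for hyaluronan, ran from 122 to 238 CPM over the 6 member libraries (median 208) and from 0 to 24.7 (median 13.2) in S phase wells. Cenpf, a kinetochore protein made in G2, ran from 194 to 273 CPM (median 226) against 4.94 to 38.9 (median 17.3). Cenpa, the histone H3 variant of centromeres, ran from 406 to 630 CPM (median 501) against 23.5 to 106 (median 68.5). For all 3 genes the lowest member library lay above the highest S phase library. The log2 differences, on the scale of log2(CPM + 10), were 3.27 ± 0.24 (SE) for Hmmr, 3.17 ± 0.20 for Cenpf and 2.93 ± 0.20 for Cenpa. Others near the top were Aspm (2.97), a spindle pole protein, Fam83d (2.79), which brings a kinase to the spindle, and the kinetochore motor Cenpe (2.53).

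Tubulins and chromatin proteins followed. All 5 tested tubulins were higher, among them Tubb4b (1426 ± 199 against 372 CPM, log2 difference 1.99) and Tuba1b (2121 ± 516 against 1107 CPM, 0.94). Of 26 chromosome condensation and chromatin genes 15 were higher and 0 lower, with a median of 0.56. Hmgb2, a chromatin protein, ran from 1084 to 2686 CPM in member libraries against 423 to 870 in S phase libraries, and the groups did not overlap. Stmn1, which destabilises microtubules, was the 1 spindle list gene without a call (772 against 686 CPM, 0.17). Of the transcription factors of the cycle, Foxm1 (1.49) and Lin54 (0.89), which belong to the mitotic programme, were higher and E2f1 (-1.80) was lower.

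Replication genes outside the S phase score were lower in members for 19 of 36 tested and higher for 0, with a median log2 difference of -0.68. Cdt1, which loads the replicative helicase and is destroyed once S phase starts, ran from 27.3 to 78.6 CPM over member libraries (median 49.8) against 245 to 336 (median 289). Hells, a chromatin remodeller, ran from 14.3 to 67.4 CPM (median 29.3) against 106 to 261 (median 141). Neither pair of groups overlapped. The log2 differences were -2.30 ± 0.18 for Cdt1 and -2.07 ± 0.24 for Hells. Dtl (-2.07), which marks Cdt1 for destruction, Tcf19 (-2.02) and the mismatch repair gene Msh6 (-1.79) were also among those furthest below. The separation was not complete in single wells: 3 of 120 members held over 1% of their molecules in replication genes, where the median S phase well held 0.872% and the median member 0.351%.

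**Figure D2:**
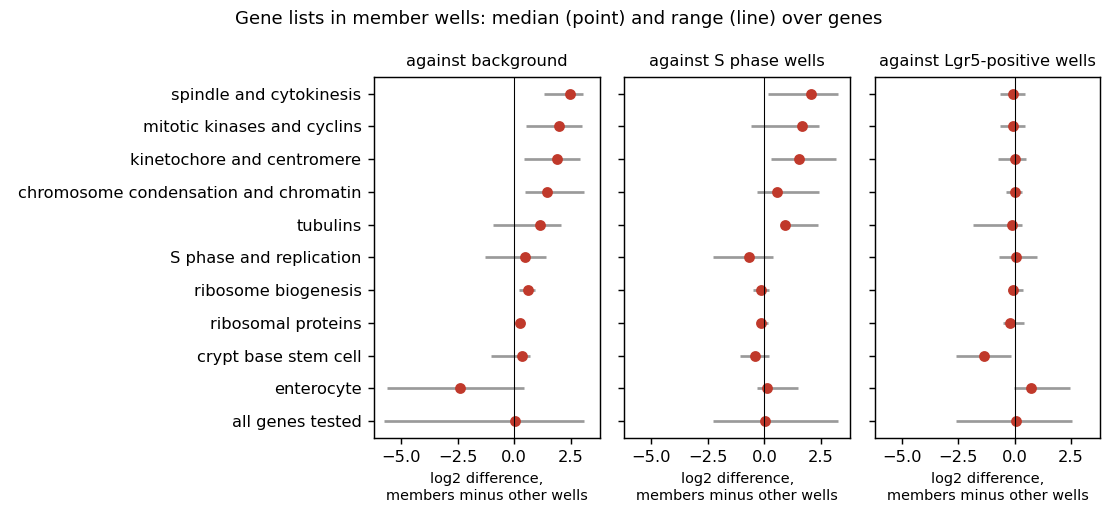
Log2 difference of members (CPM + 10 scale, x axis) for each gene list (y axis) against the background, S phase wells and Lgr5-positive wells, with the median over the list's tested genes as a point and their range as a line. The mitotic lists stand at 1.51 to 2.08 against S phase wells and near 0 against Lgr5-positive wells, where the stem list stands at -1.37 and the enterocyte list at 0.71.

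Promoters of some of these genes are shown because the 2 waves of the cycle carry different letters there. Windows from 250 bases before to 50 after the start site (RefSeq, GRCm38.p6) were searched on both strands for CHR elements, CCAAT boxes and E2F sites. A CHR element was read in its common form TTTGAA. Its other form, with a central CpG, was read as TTCGAA. For the second motif the letters in its name were searched, and for an E2F site TTTCCCGC, TTTCGCGC, TTTGCCGC or TTTGGCGC. Each line below gives the 150 bases before the start site, 5′ to 3′ on the gene's strand, with matches on either strand in capitals, and some matches overlap. The first 4 are score genes or a mitotic gene, the last 2 replication genes. Ube2c is at chr2:164769779-164769928 on the plus strand, Cdk1 at chr10:69352913-69353062 on the minus strand, Cdc20 at chr4:118437344-118437493 on the minus strand and Top2a at chr11:99024190-99024339 on the minus strand. Mcm6 is at chr1:128359706-128359855 on the minus strand and Hells at chr19:38930840-38930989 on the plus strand.
Ube2c: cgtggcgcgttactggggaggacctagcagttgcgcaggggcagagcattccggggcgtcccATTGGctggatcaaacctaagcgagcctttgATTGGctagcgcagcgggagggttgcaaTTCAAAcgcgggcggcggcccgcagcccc
Cdk1: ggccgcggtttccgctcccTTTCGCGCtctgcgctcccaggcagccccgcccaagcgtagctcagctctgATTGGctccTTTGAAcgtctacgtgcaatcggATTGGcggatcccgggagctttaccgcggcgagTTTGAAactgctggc
Cdc20: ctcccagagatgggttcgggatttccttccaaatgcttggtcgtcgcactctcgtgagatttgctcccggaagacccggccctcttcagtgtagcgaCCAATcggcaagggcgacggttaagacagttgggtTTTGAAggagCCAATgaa
Top2a: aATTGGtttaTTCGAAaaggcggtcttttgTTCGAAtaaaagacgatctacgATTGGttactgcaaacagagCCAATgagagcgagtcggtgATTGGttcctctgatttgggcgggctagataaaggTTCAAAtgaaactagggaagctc
Mcm6: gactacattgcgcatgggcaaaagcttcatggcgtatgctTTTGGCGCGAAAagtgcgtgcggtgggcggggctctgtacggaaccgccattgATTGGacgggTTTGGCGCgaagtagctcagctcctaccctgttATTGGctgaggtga
Hells: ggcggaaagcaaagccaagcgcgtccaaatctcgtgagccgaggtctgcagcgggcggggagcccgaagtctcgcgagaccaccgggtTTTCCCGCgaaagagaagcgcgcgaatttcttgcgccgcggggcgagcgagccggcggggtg

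Ube2c has a CHR match 29 bases before the start site, written TTCAAA on the strand shown, with CCAAT boxes at 57 and 88 bases before it as ATTGG. Cdk1, the mitotic kinase itself, has CHR matches at 71 and 15 bases before the start site, and an E2F match at 131. Cdc20, an activator of the anaphase-promoting complex, has 1 CHR match, at 18 bases. Top2a, the topoisomerase that untangles sister chromatids, has 4 in its window, at 179, 140, 120 and 23 bases. Mcm6, a helicase subunit, has 3 E2F matches (110, 106 and 47 bases, of which the first pair overlap), and Hells has 1, at 62. Neither of the latter pair has a CHR match in the window.

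The same letters were counted over the lists. A window was found for 9 of the 10 score genes, and 6 of these held a CHR match, 7 a CCAAT box and 1 an E2F match. Of the mitotic kinase, kinetochore and spindle lists 59 of 75 genes had a window: 72.9% held a CHR match, 71.2% a CCAAT box, 59.3% both and 6.78% an E2F match. Of the replication list 41 of 50 had one, with 17.1%, 61.0% and 31.7% for CHR, CCAAT and E2F. Over all 27025 promoters the shares were 19.4%, 37.9% and 2.32%. The genes higher in members than in S phase wells held a CHR match in 60.5% of 129 windows, those lower in 15.9% of 69, and all genes tested in 14.2% of 3964. For E2F the order was turned: 4.65% of the higher genes, 23.2% of the lower and 5.12% of those tested. A match is a description of letters, not a bound site.

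**Figure D3:**
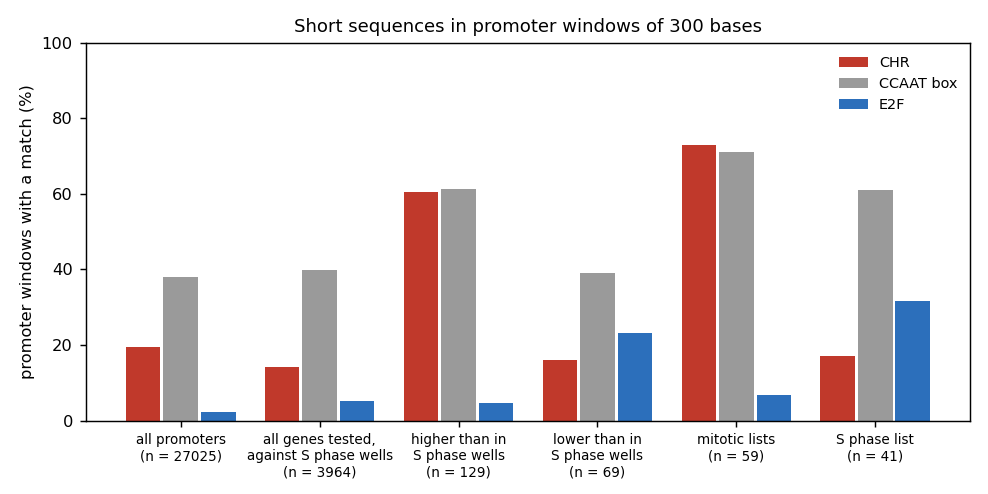
Percent of promoter windows (y axis) that hold a CHR match, a CCAAT box or an E2F match, for gene groups (x axis). CHR stands at 72.9% in the mitotic lists against 19.4% of all promoters, and E2F at 31.7% in the replication list against 2.32%.

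The members were next compared with 74 dividing wells that did carry Lgr5. These met every other limit and scored at least as high as the lowest member, between 0.214% and 0.799% with a median of 0.391%, and came from all 7 libraries (6 to 13 each). Lgr5 itself divides the groups and is not tested. Members had 0 molecules because the rule kept only such wells, so that 0 sets no upper limit on their Lgr5. The Lgr5-positive wells had 297 CPM, and 19 of them rested on 1 Lgr5 barcode. Among all 194 wells at this score, Lgr5 was seen in 48.5% of the 33 wells with 2000 to 5000 molecules and in 33.3% of the 60 with at least 20000. No lower share was seen in shallow wells (overall 38.1%, exact 95% interval 31.3% to 45.4%, counting error only). These are different wells at each depth, so the shares cannot show how often Lgr5 was missed. With the Lgr5-positive wells thinned to 2000 barcode counts, Lgr5 was still seen in 56.8% of them, so members can include cells whose Lgr5 was missed. Median depth was 14111 and 13288 molecules. The split was made in the same wells that are measured, so the p-values below speak of the association of a gene with that split over libraries.

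Among dividing cells, those without Lgr5 had less of the stem cell genes and more of the enterocyte genes, while the mitotic genes showed almost no calls. Limma (Benjamini-Hochberg adjusted p under 0.05, library as block) called 312 of 5466 genes higher in members (5.71%) and 203 lower (3.71%). With scaling by the median of ratios the split was 239 higher and 242 lower, and without GK5b 2 the higher genes numbered 207. Of the crypt base stem cell list, which leaves Lgr5 out, 16 of 18 tested genes were lower and 0 higher, with a median log2 difference of -1.37 beside 0.06 over all genes.

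Slc12a2, an ion cotransporter enriched in crypt base cells, ran from 327 to 609 CPM over the 7 member libraries (median 444) and from 907 to 2353 (median 1530) in the Lgr5-positive wells. Ephb3, a receptor that keeps cells near the crypt base, ran from 0 to 26.2 CPM (median 19.5) against 76.5 to 201 (median 111). Ifitm3, an interferon-inducible membrane protein, ran from 92.9 to 280 CPM (median 106) against 375 to 688 (median 472). In all 3 genes every member library lay below every Lgr5-positive library. The log2 differences were -1.66 ± 0.13 (adjusted p = 2.76e-09) for Slc12a2, -2.35 ± 0.25 (7.11e-07) for Ephb3 and -1.89 ± 0.15 (3.66e-09) for Ifitm3, all by limma. The largest fall was that of Rgcc, a regulator of cell cycle kinases, from 101 to 9.39 CPM (-2.60 ± 0.27, limma adjusted p = 5.57e-07). Phlda1 (-2.17), Igfbp4 (-2.09), which binds insulin-like growth factors, and Pdgfa (-2.31), a growth factor, also fell in 7 of 7 libraries.

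Regulators of the stem cell state moved in the same comparison. Sox9, a transcription factor of the crypt base, fell from 431 ± 108 to 168 ± 40.0 CPM (-1.31, limma adjusted p = 5.96e-07). Hopx, a homeodomain protein, was 424 ± 92.8 CPM in members and 717 ± 103 in Lgr5-positive wells (-0.76). Ascl2 (-2.18), the transcription factor that sets stem cell identity, fell in 6 of 7 libraries, and Smoc2 (-1.38) and Axin2 (-1.31) in 7 of 7. Rnf43 and Ephb2 were the list's genes without a call. The Wnt target list was divided: 6 of 12 fell and 2 rose. The latter were Ccnd1, cyclin D1 (330 ± 62.3 against 189 ± 97.1 CPM, 0.91, limma adjusted p = 0.00254), and Id3 (0.85), an inhibitor of helix-loop-helix factors. Of 10 tested G1 cyclins and inhibitors Ccnd1 and Ccnd2, cyclin D2 (0.70), rose, and Ccng2 (-1.04), a cyclin linked to arrest, and the antiproliferative gene Btg2 (-0.94) fell. Of 3 tested Notch genes, Hes1 (197 ± 64.1 against 362 ± 56.7 CPM, -0.90) and Dtx4 (-0.81) fell. Hes1 is the repressor that keeps progenitors on the absorptive path.

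**Figure D4:**
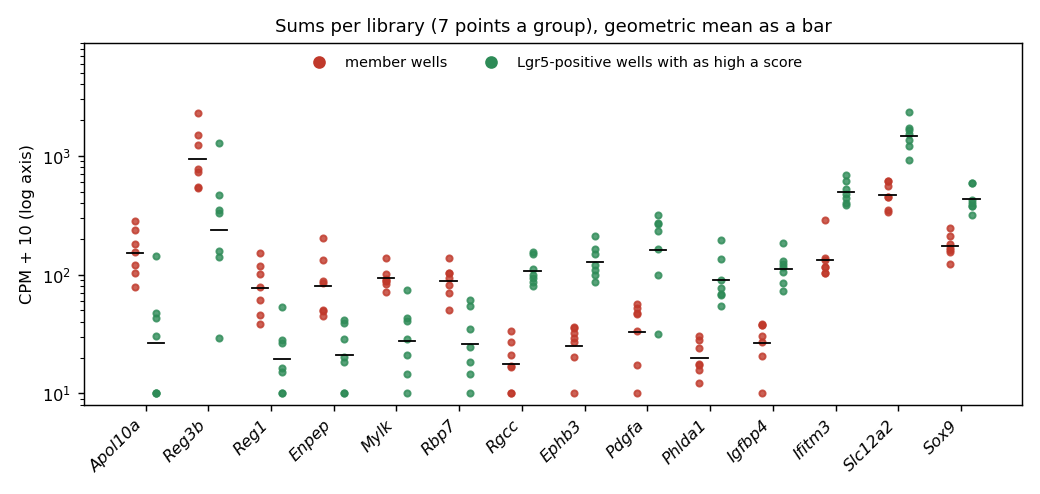
CPM + 10 in each of 7 libraries (points, log axis) of named genes (x axis) in members and in Lgr5-positive wells with as high a mitotic score, with the geometric mean as a bar. Slc12a2, Ephb3, Rgcc and Ifitm3 do not overlap between the groups, while Reg3b and Apol10a are higher in members with overlapping ranges.

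Of the enterocyte list 10 of 17 tested genes rose and 0 fell, with a median of 0.71. Reg3b, a secreted antimicrobial lectin, ran from 523 to 2272 CPM over member libraries (median 759) and from 19.1 to 1264 (median 318) in the Lgr5-positive wells. The ranges overlapped, yet Reg3b was higher within each of the 7 libraries (2.00 ± 0.27, limma adjusted p = 1.42e-05). Dmbt1, a mucosal scavenger protein, stood at 3312 ± 733 against 1273 ± 847 CPM (1.72, higher in 6 of 7). Sis, the brush border sucrase-isomaltase (2.45), Alpi, intestinal alkaline phosphatase (1.67), and Hnf4g, an enterocyte transcription factor (1.04), rose too. The largest rise that every library shared was that of Apol10a, from 32.2 to 157 CPM (2.53 ± 0.32, limma adjusted p = 8.53e-06). The brush border peptidase Enpep (1.95), Reg1 (1.99), Mylk (1.77), a myosin light chain kinase, and the retinol-binding protein Rbp7 (1.77) shared that pattern.

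The kinase, kinetochore, spindle and chromatin lists gave few calls. None of 19 mitotic kinases and cyclins was called, and 1 of 22 kinetochore genes (Sgol2, -0.73), 1 of 30 spindle genes (Stmn1, -0.67) and 1 of 26 chromatin genes (H2afv, -0.38) fell. Medians of these lists lay between -0.08 and 0.03. Among uncalled genes, Cks2, a Cdk1 subunit, was 619 ± 142 CPM in members and 654 ± 145 in Lgr5-positive wells (-0.08 ± 0.10 SE), and Ccnb2, cyclin B2, 367 ± 38.2 and 420 ± 76.4 (-0.17 ± 0.12). Both groups were chosen to score alike, which bears on genes that go with the score. Stmn1 was 755 ± 114 against 1201 ± 147 CPM without overlap, and 2 of 6 tested tubulins fell, Tubb2b (-1.83) and Tubb5 (-0.67). Of 42 replication genes 1, Rrm2 (1.00), rose. Of 75 ribosomal protein genes 25 were lower, with a median of -0.20. That count was 6 with GK5a libraries alone and 1 when wells were ranked after thinning. Paneth genes Lyz1 (-1.14) and Pla2g2a (-1.10), a secreted phospholipase, and Sox4 (-1.26), a factor of secretory precursors, were lower in 6 of 7 libraries each.

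Within the members the stem and enterocyte lists ran against each other. The stem list took 0% to 1.02% of a well's molecules (median 0.184%, against 0.656% in Lgr5-positive wells) and the enterocyte list 0% to 3.14% (median 0.783%, against 0.305%). Over 120 members their Spearman correlation was -0.52, a description over wells that share libraries and a fixed total. It ranged from -0.91 to -0.13 within the 7 libraries. Over the 74 Lgr5-positive wells it was -0.40. The correlation with depth was -0.10 for the stem list and 0.24 for the enterocyte list. Of the members 38 held over 1% of molecules in enterocyte genes, and 7 (5.83%) reached the lower quartile of the Lgr5-positive wells for the stem list, 0.546%. Olfm4, another stem cell marker, was detected in 3 of 120 members and in 11 of the 74 Lgr5-positive wells, so it was sparse in both.

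**Figure D5:**
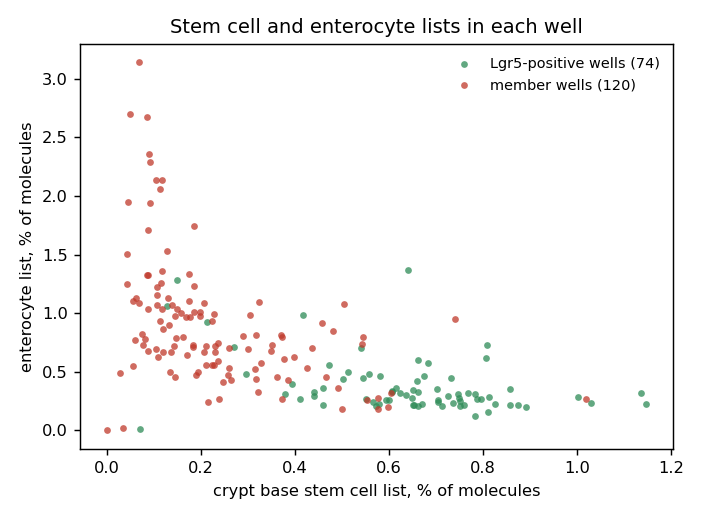
Percent of each well's molecules in the stem list (x axis) and the enterocyte list (y axis) for 120 members and 74 Lgr5-positive wells. Members lie mostly at low stem and higher enterocyte shares, with a Spearman correlation of -0.52.

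The members of GK5b and GK5a were compared as library sums, 2 against 5. The mitotic lists had no call in either direction. Limma called 11 of 4030 genes higher in GK5b (0.273%) and 11 lower (0.273%). Pla2g2a stood at 511 and 540 CPM in GK5b members and between 27.3 and 197 in the 5 GK5a libraries, with no overlap (2.77 ± 0.44, limma adjusted p = 0.00577). S phase wells reached 557 CPM of Pla2g2a in their highest library, so such a level was not particular to the members. This gene is known to be disrupted in C57BL/6 mice, the strain the labels give for both codes. Whether strain or substrain differs between the codes was not tested, and that bears on every difference between them. Gata4, a transcription factor of the proximal small intestine, stood at 253 and 286 CPM against 61.8 to 133 (1.40, limma adjusted p = 0.0193), and Ucp2, a mitochondrial carrier, was also higher (1.29). The class II antigen presentation genes were lower: H2-Aa stood at 218 and 160 CPM against 442 to 1146 (-1.76, limma adjusted p = 0.00568), H2-Ab1 at 114 and 110 against 331 to 883 (-1.87) and H2-Eb1 at 129 and 73.3 against 273 to 641 (-1.69). Hes1 (-0.95) and Id3 (-0.98) were lower too. The groups of libraries do not overlap in any gene named here, as the rule for naming them asks. Without the 2 wells rich in immune genes the class II differences were -1.59, -1.67 and -1.47, each past the threshold.

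These calls rest on both GK5b libraries. Without GK5b 1 there were 6 higher and 0 lower genes, none of them shared with the 22 above, and without GK5b 2 there was 1 higher gene, which is shared. The 45S ribosomal RNA precursor Rn45s (11851 and 6381 CPM against 1281 to 3607) and Gm20594 (2.41) were higher in GK5b. S phase wells reached 8423 CPM of Rn45s in their highest library. GK5b members had more molecules per spike-in, as had GK5b background wells. Whether Rn45s, Gm20594 and the spike-in ratio go with the other differences was not tested. The code, plate, any animal and any difference of strain cannot be told apart. Muc2, a limit gene, is given with no test: it was at 1139 and 792 CPM in GK5b members and 14.3 to 69.3 in GK5a. The background wells showed the gap too, with 1714 and 1052 CPM in GK5b and 77.3 to 195 in GK5a, so it was not particular to the members.

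Set against the whole background, which the ranking defines, limma called 1267 of 7803 genes higher in members (16.2%) and 1154 lower (14.8%), and nothing is read from these counts. All 29 tested spindle genes, 20 of 22 kinetochore genes and all 26 chromatin genes were higher. Top2a stood at 906 ± 174 against 100.3 CPM (3.12), and Aurkb, the Aurora kinase of the centromere, at 189 ± 33.0 against 15.0 (3.00). Among the lower genes were those of mature cells: all 17 tested Paneth genes, 27 of 30 enterocyte genes and 14 of 17 enteroendocrine genes. Chgb, a hormone granule protein, was at 3.17 against 895 CPM and Apoa1, a lipoprotein of enterocytes, at 10.2 against 1349. Such genes can pass the filter of 100 molecules through the background alone, so their direction says nothing particular to the members. The median Paneth share was 0.0230% in members and 0.0265% in background wells, and the enteroendocrine median was 0 in both. Over 1% of molecules lay in these lists in 23 and 32 of 456 background wells. The background held 176 wells rich in genes of mature cells or goblet genes. Without them, in 6 libraries (GK5b 1 then has under 5 background wells and drops out), 256 genes were higher and 196 lower of 6582. The spindle genes were still higher in 26 of 26 tested, while the 75 ribosomal protein genes, of which 55 were higher before, gave 0 calls.

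The difference of members from background was itself compared between the codes. Limma called 30 genes with a higher signed value in GK5b (0.384%) and 0 with a lower one (0%), with 333 and 168 at an unadjusted p under 0.05. The enterocyte list held 5 of the 30. Lct, the lactase of the brush border, had a log2 difference of members from background of -5.05 in GK5a and -0.54 in GK5b. GK5b 1 has 8 background wells. Without GK5b 1, 11 genes were called higher and 12 lower, and 5 of the 30 were among them. Leaving wells of mature cells out of the background also drops GK5b 1, which then has under 5 background wells, and gave 5 higher and 16 lower genes with 1 GK5b library, whose spread is taken to be that of the others. None of the 30 was among those.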

How the data were processed

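The authors' deposited tables hold molecule count estimates per gene and well from CEL-seq2, not normalized between wells, with reads aligned by BWA 0.6.2-r126 to mm10 per the submitters' processing notes. How molecules were counted, on which strand and with which filters is not given in the sources used here. Values in the tables, not whole numbers, undo to whole barcode counts (within 6.15e-05) under the correction for molecules sharing 1 of 4096 barcodes. Their unit was recorded as other, so no count model was run. No mitochondrial gene is among the 17470 listed, and spike-ins were left out of sums.

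Wells were summed per library and class, with sums of 139938 to 433682 molecules for members, and scaled to molecules per 1e6 (CPM). log2(CPM + 10) was tested with limma 3.58.1 in R 4.3.3 (empirical Bayes with trend, two-sided, library as block) for genes with at least 100 molecules, in libraries with at least 5 wells per class. Benjamini-Hochberg adjusted p under 0.05 over all genes tested made a call. Without strand, overlapping and antisense genes cannot be told apart, and ribosomal protein and H2 family genes have near-identical copies. On simulated data the Lgr5 comparison recovered 85.4% of genes changed 2-fold and the comparison of codes 54.2%. The difference of members from background between codes recovered 12% of genes changed 2-fold and 58.2% of those changed 4-fold. Genes without a call there, and its 0 lower genes, therefore say little. The simulation gave every gene the same spread between sums and no library effect. Genes that spread more in the real libraries, such as Reg3b, can be recovered less often.

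Named genes are the score and limit genes, the 12 largest calls each way against the background (6 elsewhere) with 1 sign in every library, and the 3 highest genes of each list in members. Other genes named were chosen after their values were seen. The members and all gene lists were chosen with earlier results of these data known. Alternatives were other pseudocounts, filters, scalings, well cuts, thinning and leaving out each library, and, chosen after seeing the data, the background without wells of mature cells and the members without immune-rich wells.

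The library number ties the classes of 1 plate, so the library was kept as a block. GK5b numbers are in accession order and pair nothing.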

Additional observations from a re-analysis of the deposited data

Results flagged for a closer look

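Of 38 groups of values examined, 4 held 1 library that stood apart from the others, where chance gives about 1 in 20. The log2 difference of Msh6 between members and S phase wells was -2.63 in GK5a 1 and -1.73 to -1.46 in the other libraries. That of Pdgfa between members and Lgr5-positive wells was -4.99 in GK5a 4 and -2.53 to -0.80 elsewhere. H2-Ab1 was at 883 CPM in the members of GK5a 2, against 331 to 426 in the other GK5a libraries, and H2-Eb1 at 641 against 273 to 293. GK5a 2 held a member without Epcam and with 1.42% of its molecules in immune genes. Without that well H2-Ab1 was at 427 and H2-Eb1 at 293 in GK5a 2.

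The signed log2 difference of members from background was higher in GK5b than in GK5a for 30 genes (limma, adjusted p under 0.05). For Lct it was -5.05 in GK5a and -0.54 in GK5b, so the gap was smaller in GK5b. The largest values of GK5b minus GK5a were 4.52 for Lct, 4.37 for Fabp6, 4.14 for Sepp1, 3.65 for Cyp3a11, 3.22 for Apoc2 and 3.15 for Guca2b.

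The picked doublets and triplets, which no comparison used, also held such wells. Of 384 picked wells with at least 2000 molecules, 264 met the limits and 65 of these (24.6%) scored at least as high as the lowest member. The 3 libraries gave 12 of 62, 20 of 91 and 33 of 111 wells.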

How the results depend on the processing

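Called counts that moved by more than 1.5 times are given as higher then lower. Against the background, 1267 became 591 with wells ranked after thinning to 2000 barcodes, 400 with the top 60 wells and 256 without wells of mature cells, and 1154 became 704 with the top 60 and 196 without wells of mature cells. The background without wells of mature cells also loses GK5b 1, here and in the difference between codes, so there 2 choices change at once. In it 7 named genes that had been called changed sign: Ccnd1 (-0.054), Reg3b (0.090), Rpsa (-0.055), Rps2 (-0.050), Rpl4 (-0.019), Npm1 (-0.0058) and Hsp90ab1 (-0.12). So did 3 named genes that had no call. Against S phase wells, 173 became 111 with the top 60, and 94 became 183 after thinning, 38 with wells of at least 5000 molecules, 47 with no library block and 51 with GK5a alone. Against Lgr5-positive wells, 312 became 126 after thinning, 49 with the top 60, 489 with the top 200, 173 with no library block and 126 with GK5a alone, and 203 became 60, 38, 332, 117 and 97 in that order. Thinning left 5 libraries for that comparison and the top 60 left 4. Between the codes of the members, 11 higher became 18 with a pseudocount of 50, 17 with a filter of 20 molecules, 2 after thinning, 1 with the top 60 and 20 with the top 200, and 11 lower became 0 after thinning and 0 with the top 60. For the difference between codes, 30 became 2 with a pseudocount of 1, 12 with means per well, 4 with the top 60, 16 at 5000 molecules and 5 without wells of mature cells, and 0 became 1 with means per well, 2 after thinning, 1 at 5000 molecules and 16 without wells of mature cells. Median-of-ratios scaling gave 982 and 1335 against the background. The cause of these moves was not tested, apart from the smaller number of libraries or wells that some settings leave.

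With each library left out in turn the counts ran from 51 to 94 lower against S phase wells, and from 207 to 383 higher and 137 to 235 lower against Lgr5-positive wells. Between member codes they ran from 1 to 22 higher and 0 to 20 lower, with the lowest without a GK5b library, and for the difference between codes from 11 to 52 and 0 to 12. The highest of these came without GK5a 1, GK5a 3 and GK5b 1.

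The gap in the share of members among wells that met the limits ran from 6.41 to 47.0 percentage points. The smallest p of that design is above the threshold. The gain in genes per well ran from 30.0 to 47.8. Thinning before ranking kept 82 of the 120 members. Of the named genes called, 18 of 29 against Lgr5-positive wells, 20 of 28 against S phase wells and 0 of 12 between codes passed under every setting. Depth limits Lgr5 itself: 19 of 74 Lgr5-positive wells rest on 1 barcode, so a well at 0 need not lack the transcript.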
